A study of Homo sapiens with 6 samples.

Results

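Solute carrier genes encode membrane proteins that move amino acids, sugars, ions, metals, vitamins and metabolites across the plasma membrane and the membranes of mitochondria and other organelles. Their sites under Argonaute were taken from a map of Argonaute crosslinks in HK2 cells, an established epithelial cell line from the proximal tubule of the human kidney. Every annotated crosslink site whose gene symbol starts with SLC followed by a digit was included, whatever its values. The rule gave 226 of 16230 sites, in 65 of 4361 named genes, with 3803 of the crosslinked reads of 4 libraries. Another 2 sites' names list a neighbouring gene before SLC4A5 or SLC5A3 and fell outside the rule.

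Argonaute proteins carry microRNAs, and a microRNA guides them to messenger RNA mainly by pairing of its seed, bases 2 to 8 from its 5′ end. Binding in a 3′ UTR is known to lower the stability and translation of the messenger RNA. In PAR-CLIP, cells incorporate 4-thiouridine into RNA, ultraviolet light joins it to the bound protein, and the joined base is read as a changed base in the sequenced cDNA. In the proximal tubule, solute carriers take back filtered glucose, amino acids, phosphate and organic ions, and TGF-beta1 is a cytokine known to drive dedifferentiation and fibrosis in the kidney.

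Anti-Argonaute libraries came from HK2 cells exposed for 24 h to TGF-beta1 at 20 ng/mL (TGFbeta1, 2 libraries) and from cells without it (control, 2 libraries). All cells were deprived of serum for 24 h, labelled with 100 uM 4-thiouridine for 20 h and irradiated at 365 nm. All libraries are of 1 cell line, and the labels leave it unsaid whether replicates are separate cultures; p-values then measure only library-to-library spread, which may be technical. The 2 IgG libraries of the series were not analysed here, and the values carry no background from a control pull-down.

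Sequencing depth was 5293207 and 3415700 reads in TGFbeta1 libraries, against 1714444 and 1926254 reads in control libraries. Crosslinked reads at the listed sites numbered 74969 and 72206 in TGFbeta1 libraries, and 36958 and 53835 in control libraries. Solute carrier sites held 1097 and 1111 of these in TGFbeta1 libraries, and 624 and 971 in control libraries. Values are reads relative to the library's total (RPM), adjusted by a library scale factor (TMM, which matches libraries on the bulk of their genes or sites) and then called scaled RPM. A level depends on the amount of the RNA and on how often 4-thiouridine lies at the contact. Scaled RPM is therefore compared between libraries for 1 gene or site. From these reads alone, more bound RNA cannot be told apart from more RNA. The TGFbeta1 libraries are the deeper ones, and of the 226 listed solute carrier sites 22 had no control read and 1 had no TGFbeta1 read. Among the other 16004 sites these counts were 1852 and 192, so such sites are not particular to solute carriers. None of 27 genes that mark proximal tubule, 17 of them solute carriers such as SLC34A1, SLC5A2 and SLC22A6, had a crosslink site. The same held for all 13 markers of other kidney or contaminating cells. A gene without a site may be absent, or present and not bound often enough to be listed.

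The sites with most reads are shown first, because most of them carry a match to a microRNA seed right beside the crosslinked T. Each window is 29 nt of the transcript strand from the deposited table (hg38, 5′ to 3′), with the crosslinked T as base 15 and capitals for the bases that pair with the seed the authors annotate there. A window without capitals has no seed annotation. The windows of 11 sites among those with most reads were the following.
SLC38A2, 3′ UTR, chr12:46360759-46360787, minus strand, miR-26: gatattttatgatttTACTTGAatgtgcc
SLC25A13, coding sequence, chr7:96121209-96121237, minus strand, let-7: tcaagccatcagtatCTACCTCaaaggct
SLC6A6, 3′ UTR, chr3:14485079-14485107, plus strand, miR-148: tacagagctttatattTGCACTaggattt
SLC38A2, 3′ UTR, chr12:46359831-46359859, minus strand: tgtcatctcattcttgtacaacgtagaat
SLC25A36, 3′ UTR, chr3:140979879-140979907, plus strand, miR-26: tatctagctgactttTACTTGAattgttc
SLC38A2, 3′ UTR, chr12:46359813-46359841, minus strand, miR-30: caacgtagaattactTGTTTACatccaac
SLC38A2, 3′ UTR, chr12:46360003-46360031, minus strand, miR-26: actggaagtgtgaatTACTTGAcaatgta
SLC20A1, 5′ UTR, chr2:112646754-112646782, plus strand, miR-30: gatacctcatattcTGTTTACacatcttg
SLC25A36, 3′ UTR, chr3:140979727-140979755, plus strand, miR-23: gtgtaccccgtttATGTGAagaattatga
SLC30A1, 3′ UTR, chr1:211571677-211571705, minus strand, miR-196: ttttccaaagctgttcCTACCTcaccatg
SLC15A4, coding sequence, chr12:128794300-128794328, minus strand: ttacttttttcttctggctgctattcaag

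The mature microRNAs that stand for these seed families are given from RefSeq (GRCh38.p14), with the seed in capitals, since the capitals above are the reverse complement of all or part of it.
hsa-miR-26a-5p: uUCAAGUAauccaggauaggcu
hsa-let-7a-5p: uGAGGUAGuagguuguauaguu
hsa-miR-30a-5p: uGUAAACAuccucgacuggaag
hsa-miR-148a-3p: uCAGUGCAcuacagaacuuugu
hsa-miR-196a-5p: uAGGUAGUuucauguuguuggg
hsa-miR-23a-3p: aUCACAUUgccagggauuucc
Of these windows, 6 hold the full 7-nt match, 3 hold a 6-nt part of it and 2 have no annotation. In the SLC38A2 window of highest count the match TACTTGA begins at the base after the crosslinked T, and in the SLC20A1 window TGTTTAC begins at the crosslinked T itself. On the transcript strand, TACTTGA was found in 4 of 226 solute carrier windows of 31 nt (1.77%), against 0.832% of all 16230. The let-7 match CTACCTC was found in 2.65% of solute carrier windows, against 1.98% of all. The SLC30A1 window, annotated by the authors with a 6-nt match to miR-196, also holds the 7-nt let-7 match CTACCTC, because the miR-196 and let-7 seeds share letters. A 7-nt match to another listed seed than the annotated family was present at 19 solute carrier sites (8.41%), against 4.81% of all other sites, so the family names below are the authors' choice among overlapping matches.

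Crosslinked reads were concentrated in a few carriers. SLC38A2 held 29.7% of the solute carrier reads, the 5 genes with most reads held 51.5%, and the 15 genes with most reads held 73.4%. At the other end, 28 genes had 1 site each and 13 had fewer than 10 reads in all. SLC38A2 ranked 16 of 4361 genes by reads and 10 by number of sites, while the next carrier, SLC6A6, ranked 192 by reads.

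**Figure D1:**
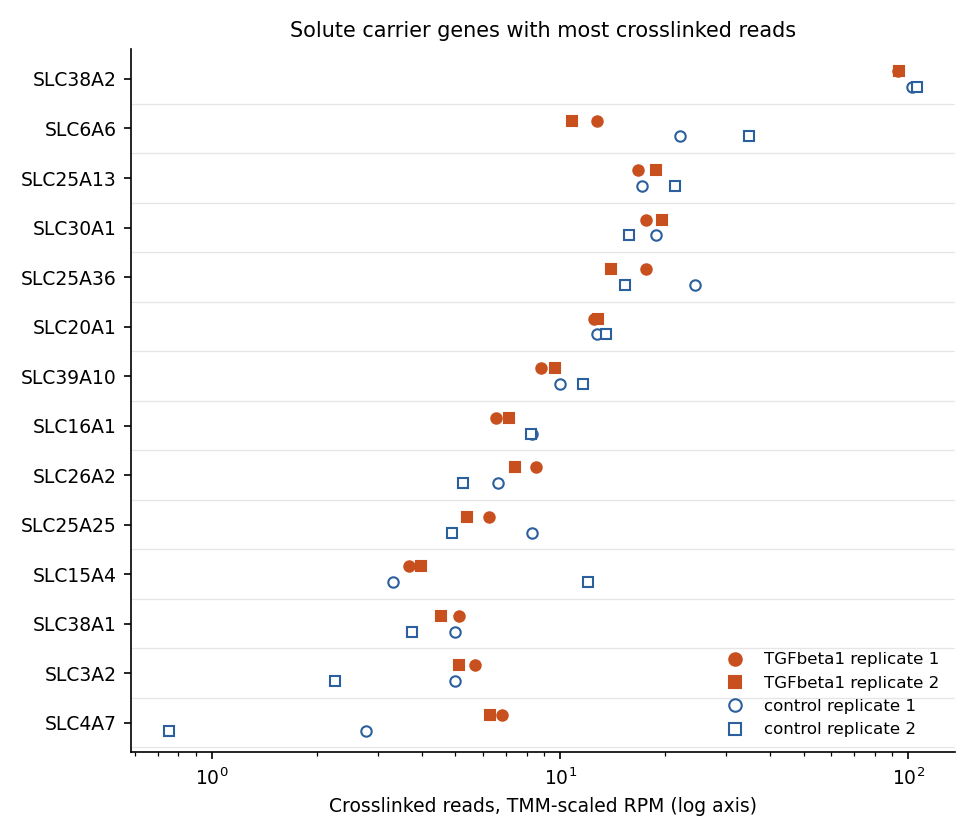
Crosslinked reads in scaled RPM (log axis) for 14 of the solute carrier genes with most reads, with TGFbeta1 libraries as filled symbols above the open symbols of control libraries, circles for replicate 1 and squares for replicate 2. SLC38A2 lies near 100 in all 4 libraries, SLC6A6 is lower in both TGFbeta1 libraries (12.8 and 10.8) than in both control libraries (22.1 and 34.9), and SLC4A7 is higher in both (6.81 and 6.26, against 2.77 and 0.75).

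No solute carrier gene changed with TGFbeta1 at an adjusted p under 0.05 when all genes were fitted together (limma on log2 of scaled RPM + 1, Benjamini-Hochberg adjustment). Of 1266 genes that passed the filter on low values, 39 (3.08%) were called, 20 higher and 19 lower in TGFbeta1 libraries. Of the 65 solute carrier genes, 22 passed the filter and 0 were called. At an unadjusted p under 0.05 there were 3, SLC6A6 and SLC26A1 lower and SLC4A7 higher, against a background of 13.8% of all tested genes. edgeR's quasi-likelihood test on the recovered reads called 1, SLC6A6, where its background over all genes was 3.79%. DESeq2 called 0. The log2 difference was negative in 15 and positive in 7 of the tested carriers, with a median of -0.15, against 0.02 over all tested genes. Both TGFbeta1 libraries lay below both control libraries in 6 (background 23.1%) and above both in 3 (background 20.5%). Among these, SLC26A1 passed the filter through the control libraries and SLC4A7 through the TGFbeta1 libraries. Without TMM scaling the median of all tested genes was -0.45, a shift of -0.47, and that of the carriers -0.60; in both fits 15 of the 22 lay below the median of all genes. The calls over all genes were then 6 higher and 23 lower, so directions below are relative to the bulk of genes, and a sentence says where a group order was lost without the scaling.

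**Figure D2:**
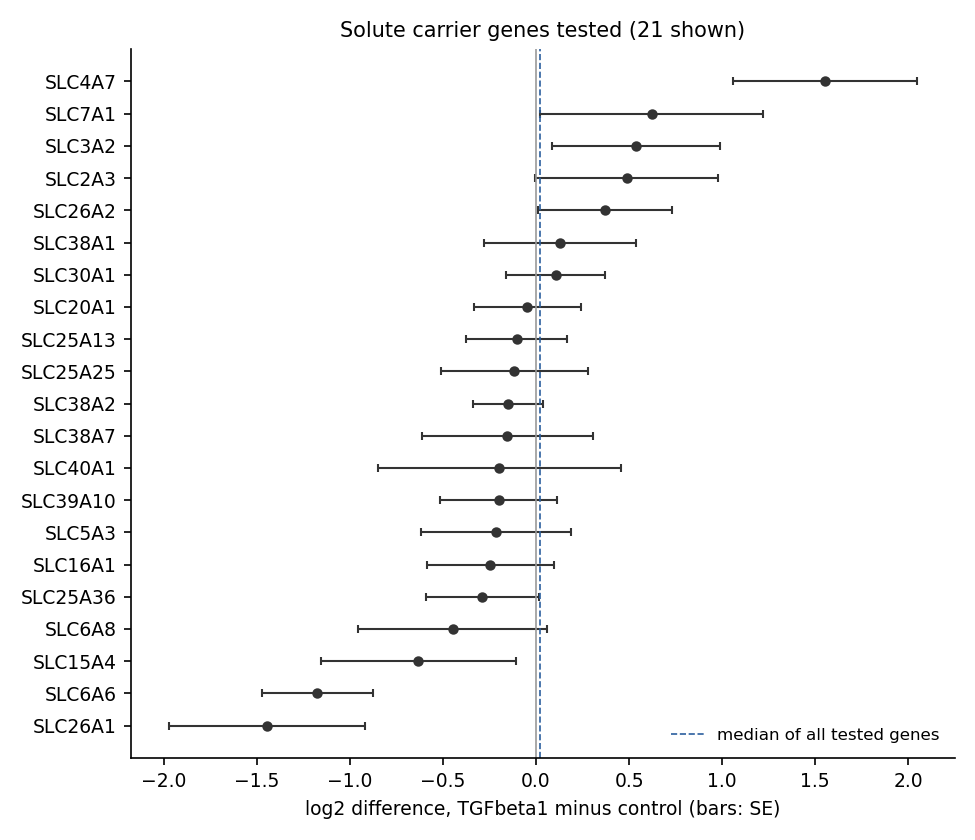
The log2 difference, TGFbeta1 minus control, for 21 of the 22 solute carrier genes that passed the filter, with bars of 1 SE and a dashed line at the median of all tested genes (0.02). SLC4A7 lies at 1.55, SLC6A6 at -1.17 and SLC26A1 at -1.45; most of the other bars cross 0.

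The solute carrier share of all crosslinked reads was 1.46% and 1.54% in TGFbeta1 libraries, and 1.69% and 1.80% in control libraries. Both TGFbeta1 libraries were below both control libraries, with a difference of -0.245 percentage points between the means. The exact two-sided permutation test gave p = 0.333, which is the smallest that 2 libraries against 2 can give. Without SLC38A2 the share was 1.03% and 1.09% in TGFbeta1 libraries, and 1.19% and 1.28% in control libraries, so the order of the groups did not rest on that gene.

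Amino acid carriers held more reads than any other role: 12 genes with 97 sites and 1641 reads, or 43.2% of the total. Their summed level was 136 and 130 scaled RPM in TGFbeta1 libraries, against 148 and 164 in control libraries. None of the 6 tested was called, and 3 had a negative and 3 a positive difference. SLC38A2 (ENSG00000134294.13), a sodium-coupled carrier of small neutral amino acids such as alanine and glutamine that cells induce when amino acids are scarce, had 63 sites. Its level was 93.3 and 94.2 scaled RPM in TGFbeta1 libraries, and 102 and 106 in control libraries. The groups did not overlap, but the log2 difference of -0.15 ± 0.19 (SE) was smaller than its error, with an adjusted p of 0.781 (limma).

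The 63 sites of SLC38A2 comprised 34 in coding sequence, 23 in the 3′ UTR, 4 in introns and 2 in the 5′ UTR. The 3′ UTR held 69.5% of its reads and the coding sequence 26.9%. In the 3′ UTR, summed reads were 59.3 and 62.1 scaled RPM in TGFbeta1 libraries, against 70.2 and 86.2 in control libraries. In the coding sequence they were 27.8 and 28.8 in TGFbeta1 libraries, against 29.3 and 19.1 in control libraries. The groups were thus apart in the 3′ UTR, with and without TMM scaling, and overlapped in the coding sequence, and the difference between the regions was not tested.

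Most of the 3′ UTR reads of SLC38A2 lay in 2 stretches. The first was the miR-26 site at chr12:46360773, with 224 reads, 19.9% of the gene. The second began 756 nt downstream with another miR-26 site of 93 reads and went on to a pair of sites 928 and 946 nt downstream, with 177 and 99 reads. The site at 928 nt has no seed annotation, and the one 18 nt further carries the 7-nt miR-30 match, so the window of one reaches into that of the other. The miR-26 site at 46360773 had 17.2 and 19.1 scaled RPM in TGFbeta1 libraries, and 19.4 and 22.7 in control libraries (adjusted p = 0.764, limma). The site without annotation had 13.2 and 11.1 scaled RPM in TGFbeta1 libraries, and 14.4 and 23.7 in control libraries (adjusted p = 0.334, limma). Its neighbour with the miR-30 match had 7.69 and 9.71 scaled RPM in TGFbeta1 libraries, and 8.86 and 8.26 in control libraries. None of the 3 sites passed the test, and only the last had overlapping groups. Of the gene's sites, 40 lie within 30 nt of another of its sites, so they are not separate measurements.

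**Figure D3:**
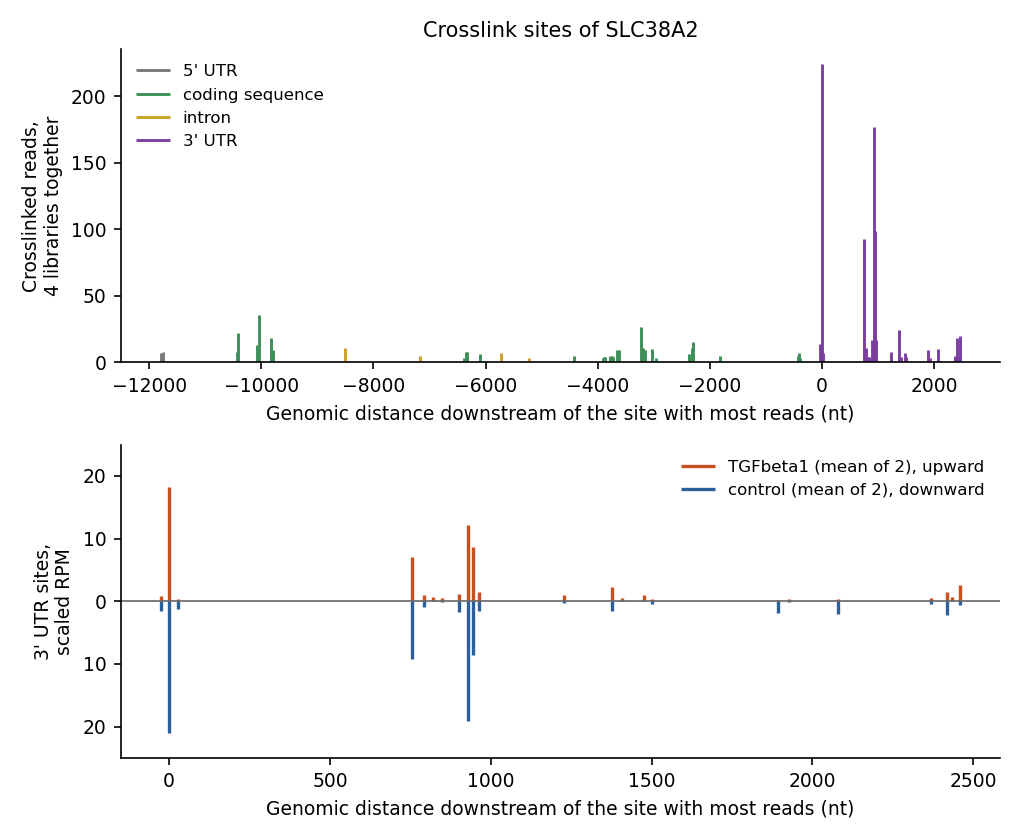
Top, crosslinked reads of 4 libraries together at each of the 63 sites of SLC38A2, by genomic distance in nt downstream of its site with most reads and coloured by region. Bottom, the 3′ UTR sites alone in scaled RPM, with the TGFbeta1 mean drawn upward and the control mean downward: the site at distance 0 has 18.2 and 21.05, and the site at 928 nt has 12.2 and 19.1.

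SLC6A6 (ENSG00000131389.16), the sodium- and chloride-coupled taurine transporter that kidney cells use to take up an organic osmolyte, had 4 sites, all in its 3′ UTR. The gene's level was 12.8 and 10.8 scaled RPM in TGFbeta1 libraries, against 22.1 and 34.9 in control libraries. Both TGFbeta1 values lay below both control values under either scaling, and the control mean was 2.42-fold the TGFbeta1 mean. The log2 difference was -1.17 ± 0.30 (SE), with an adjusted p of 0.0695 in limma and 0.0413 in edgeR's quasi-likelihood test. Without control replicate 2, the higher control library, the log2 difference was -0.86, in a fit with 1 control library left.

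The site at chr3:14485093 held 91.2% of the reads of SLC6A6 and was the only solute carrier site to pass the site fit. Of 1059 sites tested, 76 (7.18%) were called, and of the 226 solute carrier sites 18 were tested and 1 was called. Its level was 12.3 and 10.6 scaled RPM in TGFbeta1 libraries, from 40 and 37 reads, against 21.05 and 28.2 in control libraries, from 38 and 82 reads. It fell in TGFbeta1 libraries, with a log2 difference of -1.03 ± 0.30 (SE) and an adjusted p of 0.0329 (limma). edgeR's quasi-likelihood test also called it, as the only 1 of the solute carrier sites (background 7.74%). The call did not hold without control replicate 2, TGFbeta1 replicate 1 or TGFbeta1 replicate 2 (adjusted p = 0.177, 0.151 and 0.505, at log2 differences of -0.87, -1.04 and -0.77). It was also lost with DESeq2 (0.0595, log2 -1.12), without TMM scaling (0.113, log2 -1.66), without the low-count filter (0.452, log2 -0.93), without the variance trend (0.193, log2 -1.03) and with covering reads at all sites (0.0694, log2 -1.46), always lower in TGFbeta1 libraries. Its window holds TGCACT, a 6-nt match to bases 3 to 8 of miR-148, which begins 2 bases after the crosslinked T. The share of covering reads that carried the crosslink there was 45.5% and 52.9% in TGFbeta1 libraries, and 42.7% and 49.1% in control libraries, so the crosslinked share of covering reads overlapped between the groups.

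The other amino acid carriers were lower in reads. SLC38A1, a relative of SLC38A2 that also carries glutamine, had 5.11 and 4.55 scaled RPM in TGFbeta1 libraries, and 4.98 and 3.75 in control libraries. SLC3A2, the heavy chain that partners the light chains SLC7A5, SLC7A6 and SLC7A11, had 5.67 and 5.12 in TGFbeta1 libraries, and 4.98 and 2.25 in control libraries, with 5 of its 6 sites in coding sequence; its groups overlapped without TMM scaling. Neither gene passed the test (adjusted p = 0.926 and 0.636, limma). SLC7A1, a carrier of cationic amino acids such as arginine, varied more within groups than between them, at 7.09 and 2.85 in TGFbeta1 libraries and 1.11 and 5.25 in control libraries. SLC7A11, the cystine carrier that feeds glutathione synthesis, did not pass the filter and was picked out after its values were seen. It had 9 and 13 reads in TGFbeta1 libraries, against 1 and 1 in control libraries, or 2.55 and 3.70 scaled RPM against 0.55 and 0.38. Most of these reads, 20 of 24, came from 1 site in its 3′ UTR with a 7-nt match to miR-27, shown here with that match in capitals.
SLC7A11, 3′ UTR, chr4:138171541-138171569, minus strand: actatagatgtctatACTGTGAaaagtgt

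Carriers of sodium, protons, chloride and bicarbonate comprised 6 genes with 18 sites and 288 reads. Their summed level was 26.4 and 28.5 scaled RPM in TGFbeta1 libraries, against 21.02 and 21.4 in control libraries, so the groups did not overlap; without TMM scaling they did, at 17.6 and 29.3 RPM in TGFbeta1 libraries and 22.2 and 29.6 in control libraries. None of the 3 tested was called, 2 with a positive and 1 with a negative difference. SLC4A7, an electroneutral sodium-bicarbonate cotransporter, had 6.81 and 6.26 scaled RPM in TGFbeta1 libraries, against 2.77 and 0.75 in control libraries. Its log2 difference was 1.55 ± 0.50 (SE), with an adjusted p of 0.156 (limma). It rests on 24 and 22 reads in TGFbeta1 libraries, against 5 and 2 in control libraries, and it passed the filter through the TGFbeta1 libraries. Its site with most reads, in the 3′ UTR, had 13 and 7 reads in TGFbeta1 libraries, against 0 and 1 in control libraries; it carries a 7-nt match to miR-200b and miR-429, in capitals.
SLC4A7, 3′ UTR, chr3:27375808-27375836, minus strand: agaagggtctatgatCAGTATTactttat

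SLC26A2, a sulfate carrier, had 8.51 and 7.40 scaled RPM in TGFbeta1 libraries, and 6.64 and 5.25 in control libraries. The groups did not overlap, except without TMM scaling, and the log2 difference was 0.37 ± 0.36 (SE), with an adjusted p of 0.709 (limma). All 5 of its sites were in the 3′ UTR. Its relative SLC26A1, an anion exchanger for sulfate and oxalate that belonged to no list of roles, had 1 site, downstream of its annotated 3′ UTR. It had 0.28 and 1.42 scaled RPM in TGFbeta1 libraries, against 3.87 and 3.75 in control libraries, from 1 and 5 reads against 7 and 10. The log2 difference was -1.45 ± 0.53 (SE), with an adjusted p of 0.223 (limma). It passed the filter through the control libraries.

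Metal ion carriers comprised 10 genes with 32 sites and 507 reads, and none of the 3 tested was called. Their summed level overlapped between groups, at 42.0 and 47.8 scaled RPM in TGFbeta1 libraries and 46.5 and 40.1 in control libraries. SLC30A1, the zinc exporter of the plasma membrane, had 11 sites, 10 of them in the 3′ UTR. Its level was 17.6 and 19.6 in TGFbeta1 libraries, and 18.8 and 15.7 in control libraries, with a log2 difference of 0.11 ± 0.27 (SE). SLC39A10, a zinc importer, had 8.79 and 9.68 in TGFbeta1 libraries, and 9.95 and 11.6 in control libraries, without passing the test (adjusted p = 0.826, limma). SLC40A1 is ferroportin, the iron exporter. Its 1 coding site had 1.13 and 6.26 in TGFbeta1 libraries, and 6.08 and 1.88 in control libraries. The groups overlapped, and the TGFbeta1 libraries spanned the gene's whole range.

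Mitochondrial carriers of family 25 comprised 11 genes with 25 sites and 578 reads, of which 0 of 3 tested were called. Their summed level was 49.1 and 47.0 scaled RPM in TGFbeta1 libraries, and 60.3 and 49.1 in control libraries. SLC25A13 is citrin, the aspartate/glutamate carrier that links the urea cycle and the malate-aspartate shuttle. It had a single site, the let-7 site in its coding sequence, which ranked 5 of 4251 coding-sequence sites by reads. Its level per gene was 16.7 and 18.8 in TGFbeta1 libraries, and 17.1 and 21.4 in control libraries. The difference was within the replicate spread (log2 -0.10 ± 0.27 SE). There 67.3 to 81.9% of covering reads carried the crosslink in the 4 libraries. Over all solute carrier sites crosslinked in every library, 25.3 and 27.5% did in TGFbeta1 libraries, and 30.8 and 34.6% in control libraries. A high share is not particular to this site, since the miR-26 site of SLC25A36 had 61.1 to 83.3%. SLC25A36, a carrier of pyrimidine nucleotides, had 17.6 and 13.9 in TGFbeta1 libraries, and 24.3 and 15.4 in control libraries. Its miR-26 site and its miR-23 site held 51.5% and 36.2% of its reads. SLC25A25, a calcium-regulated carrier of ATP-magnesium and phosphate, had 6.24 and 5.41 in TGFbeta1 libraries, and 8.30 and 4.87 in control libraries.

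The role list of carriers of monocarboxylates, phosphate, nucleosides, vitamins and organic ions comprised 9 genes with 22 sites and 375 reads. SLC5A6 and SLC16A12 were in no role list and are not among these genes. All 3 tested had a negative difference and none was called. SLC20A1, a sodium-phosphate cotransporter that also serves as a retrovirus receptor, had 12.5 and 12.8 scaled RPM in TGFbeta1 libraries, and 12.7 and 13.5 in control libraries. The groups overlapped, except without TMM scaling, where both TGFbeta1 values were lower. The miR-30 site in its 5′ UTR held 58.8% of its reads. SLC16A1, the lactate and pyruvate carrier MCT1, had 6.53 and 7.12 in TGFbeta1 libraries, and 8.30 and 8.25 in control libraries (adjusted p = 0.811, limma). SLC15A4, a lysosomal histidine and peptide carrier, had 3.69 and 3.99 in TGFbeta1 libraries, and 3.32 and 12 in control libraries. Control replicate 2 alone set its difference apart, since control replicate 1 was the lowest of the 4.

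Sugar carriers comprised 5 genes with 13 sites and 136 reads, and 0 of 2 tested were called. SLC5A3, the sodium/myo-inositol cotransporter that takes up another osmolyte used by kidney cells, had 4.54 and 3.70 scaled RPM in TGFbeta1 libraries, and 4.98 and 4.87 in control libraries. Of its 3 sites, 1 in the coding sequence and 1 in the 3′ UTR carried the 7-nt miR-30 match. SLC2A3, the glucose carrier GLUT3, had 3.69 and 5.12 in TGFbeta1 libraries, and 1.66 and 4.50 in control libraries. SLC37A4, the glucose-6-phosphate carrier of the endoplasmic reticulum, had 18 reads in all. Family 35, nucleotide sugar carriers of the Golgi and related proteins, comprised 7 genes with 12 sites, none of which passed the filter. Its members with most reads were SLC35E2B with 38, SLC35G2 with 37 and SLC35A2, the UDP-galactose carrier, with 29. SLC2A3 and SLC35E2B have close copies in the genome, SLC2A14 and SLC35E2A, and how the authors treated reads that fit both is not given in the sources used here. In the genes of no role list, SLC6A8, the creatine transporter, had 1.42 and 4.27 in TGFbeta1 libraries, and 4.42 and 3.37 in control libraries, and SLC5A6, the sodium-dependent multivitamin transporter, had 33 reads at 1 let-7 site.

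**Figure D4:**
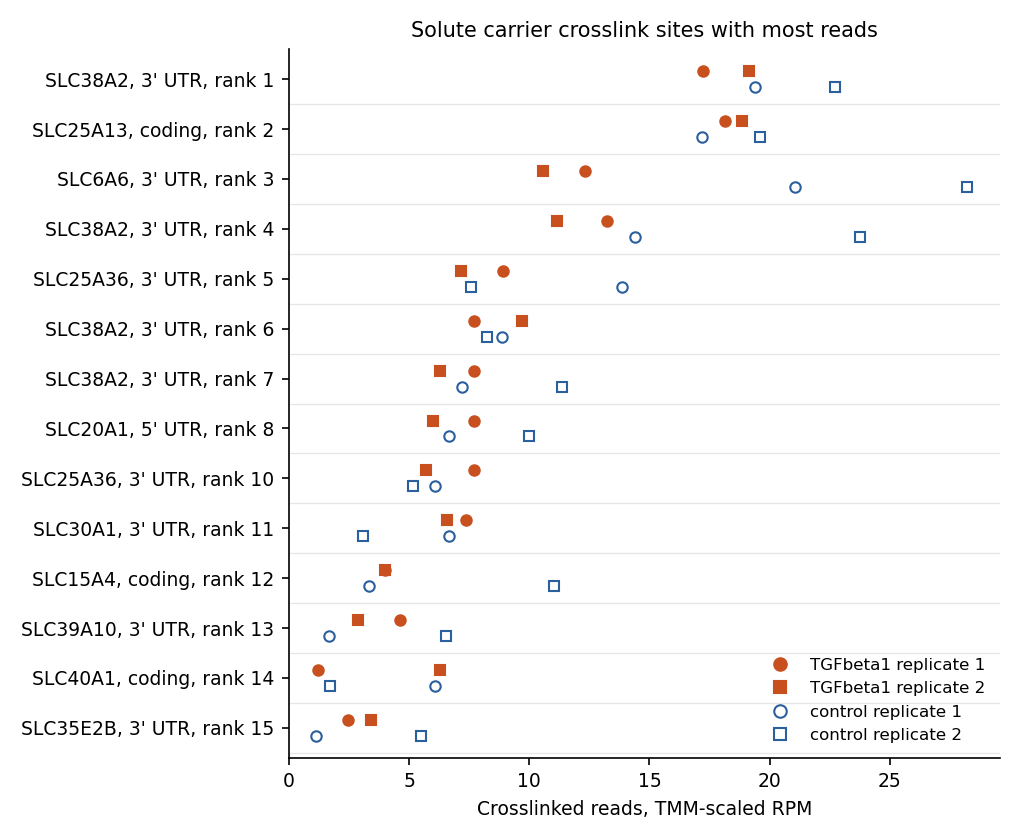
Crosslinked reads in scaled RPM at 14 of the solute carrier sites with most reads, with TGFbeta1 libraries as filled symbols above the open symbols of control libraries. At the SLC6A6 site of rank 3 both TGFbeta1 values (12.3 and 10.6) lie below both control values (21.05 and 28.2), while at the SLC25A13 site of rank 2 the groups overlap (18.2 and 18.8 against 17.2 and 19.6).

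At the other 17 tested solute carrier sites no call was made. Over the 18 tested sites, 12 log2 differences were negative and 6 positive, with a median of -0.22, against 0.05 over all tested sites. Both TGFbeta1 libraries lay below both control libraries at 5 (background 24.5%) and above both at 0 (background 23.9%). At an unadjusted p under 0.05 there were 2, the SLC6A6 site and the SLC26A1 site, against a background of 19.3%. The filter acts on RPM before TMM scaling, and the tested sites of SLC26A1, SLC5A3 and SLC6A8 passed it through the control libraries. Those of SLC26A1 and SLC5A3 are among the 5 that were lower. These counts are thus partly set by the filter and give no test of a direction.

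Of the solute carrier sites, 115 were in 3′ UTRs (50.9%), 81 in coding sequence (35.8%), 21 in introns (9.29%), 4 in 5′ UTRs, 2 downstream of an annotated 3′ UTR, 1 where coding sequence and 3′ UTR overlap, and 2 antisense to SLC16A4 and SLC35F4, which bear those names only by position. Among the other 16004 sites, 38.8% were in 3′ UTRs, 26.1% in coding sequence and 22.3% in introns. The 3′ UTR held 64.2% and 63.5% of solute carrier reads in TGFbeta1 libraries, and 65.7% and 71.1% in control libraries. The same share at all other sites was 55.7% and 60.4% in TGFbeta1 libraries, and 58.9% and 66.4% in control libraries. It was higher at solute carrier sites in 4 of 4 libraries, by 5.76 ± 2.38 percentage points (SD over libraries), and the exact sign-flip permutation test gave p = 0.13, the smallest possible with 4 libraries. The same sites are compared in every library. Here and below, this SD and this test therefore measure how alike the libraries are, and not the spread over genes or sites. All members are protein-coding genes and the other sites include noncoding RNA. When sites in coding sequence, UTRs and introns alone were counted, the 3′ UTR difference was -0.53 ± 1.63 points and positive in 1 of 4 libraries (p = 0.625, exact sign-flip permutation). The higher 3′ UTR share was thus not seen among messenger RNA regions.

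The share in coding sequence was 27.4% and 29.9% of solute carrier reads in TGFbeta1 libraries, and 24.8% and 20.7% in control libraries. At all other sites it was 19.0% and 19.1% in TGFbeta1 libraries, and 17.6% and 16.4% in control libraries. The difference was 7.69 ± 2.7 points over all sites and 5.78 ± 2.47 points among messenger RNA regions, positive in 4 of 4 libraries each time (p = 0.13, exact sign-flip permutation). Without SLC38A2 it was 7.24 ± 2.35 points. Between TGFbeta1 and control libraries, neither share could pass a test: the means of TGFbeta1 and control libraries differed by -4.57 points in the 3′ UTR share of solute carriers and by 5.89 points in their coding share (p = 0.333 each, exact permutation). At all other sites the means moved the same way in both shares, so neither direction is particular to solute carriers. Their 3′ UTR share was 55.7% and 60.4% in TGFbeta1 libraries, against 58.9% and 66.4% in control libraries.

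**Figure D5:**
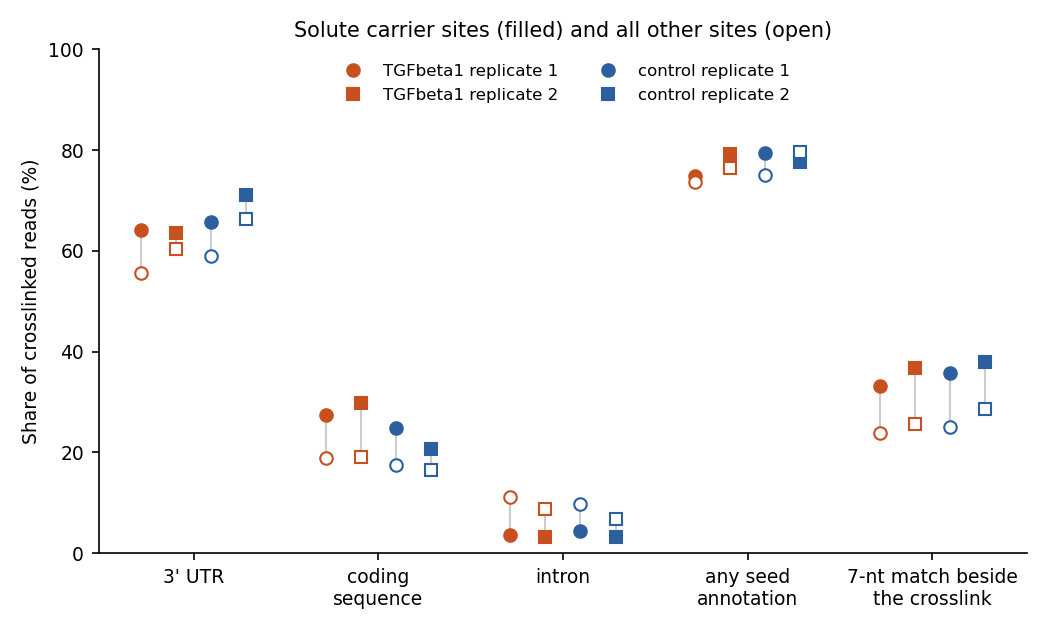
Share of crosslinked reads (%) by region and by seed annotation in each library, at solute carrier sites (filled) and at all other sites (open), joined by a line within a library. The TGFbeta1 libraries stand left of the control libraries; filled symbols lie above open ones in all 4 libraries for the 3′ UTR, coding sequence and 7-nt match, and below them for introns.

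A seed annotation was present at 148 of the 226 solute carrier sites: 52 with a 7-nt match, 53 with a match to bases 2 to 7, 41 with a match to bases 3 to 8 and 2 with a bulge. Sites with the 7-nt match had a median of 15.5 reads and held 41.4% of the reads, while the 78 sites without annotation had a median of 6 reads and held 22.4%. A 7-nt match that the authors place directly beside the crosslink accounted for 33.1% and 36.7% of solute carrier reads in TGFbeta1 libraries, and 35.7% and 38.0% in control libraries. At all other sites it accounted for 23.9% and 25.7% in TGFbeta1 libraries, and 25.1% and 28.7% in control libraries. The difference was 10.05 ± 0.94 points and positive in 4 of 4 libraries (p = 0.13, exact sign-flip permutation), and it was 6.82 ± 2.06 points without SLC38A2. Among messenger RNA regions it was 8.34 ± 1.06 points. Whether it exceeds the spread over genes or sites was not tested. For any seed annotation the share at solute carrier sites was 74.9% and 79.2% in TGFbeta1 libraries, and 79.5% and 77.7% in control libraries, and it was above that of the other sites in 3 of 4 libraries, by 1.70 ± 2.77 points (p = 0.375, exact sign-flip permutation). Among messenger RNA regions the difference was -0.27 ± 2.46 points and positive in 2 of 4 libraries (p = 0.875, exact sign-flip permutation). Over all sites but without SLC38A2 it was 7.60 ± 3.43 points and positive in 4 of 4 libraries (p = 0.13, exact sign-flip permutation). With SLC38A2 included, a higher share with any seed annotation was thus not seen among messenger RNA regions. Of the reads of SLC38A2, 36.1% were at sites without annotation, against 16.6% for the other solute carriers together. The share among messenger RNA regions without SLC38A2 was not computed. TGFbeta1 and control libraries overlapped in this share, and their means differed by -1.50 points, or by -9.88 points when reads covering the site were counted.

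By family of seed, miR-26 led. Its 9 sites in 6 genes, among them SLC38A2, SLC25A36, SLC38A1 and SLC39A10, held 498 reads, or 13.1% of solute carrier reads, against 2.34% of reads at all other sites. The 3 sites with the 7-nt match in 3′ UTRs whose windows are given above held 224 and 93 of them in SLC38A2, and 101 in SLC25A36. The site of 224 reads also holds a 7-nt match to the miR-181a-5p family. A coding site of SLC38A2 held 36, while the sites in SLC39A10 and SLC38A1 held 26 and 5. The share of reads thus rests mainly on SLC38A2. By number, miR-26 sites were 3.98% of solute carrier sites, against 2.34% of all other sites. The summed level of the 9 sites was 39.4 and 40.5 scaled RPM in TGFbeta1 libraries, against 49.8 and 47.5 in control libraries, without overlap under either scaling. The let-7 family followed with 302 reads at 7 sites, or 7.94% against 6.68% elsewhere, of which 213 came from SLC25A13. SLC16A12, a monocarboxylate carrier relative, had its 2 sites in coding sequence, with 25 and 7 reads, and both carried the 7-nt let-7 match. The miR-30 family had 260 reads at 9 sites (6.84% against 4.03%) and the miR-148 family 250 reads at 6 sites (6.57% against 1.76%), 197 of them from the SLC6A6 site. The miR-148 sites summed to 15.7 and 16.6 scaled RPM in TGFbeta1 libraries, against 24.9 and 33.0 in control libraries, an order that follows SLC6A6. These sums are descriptions.

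Some families took smaller shares of reads at solute carriers than elsewhere, without a test of these shares. By the authors' annotation, the miR-181a-5p family held 1.18% of solute carrier reads, against 4.56% elsewhere, and miR-27 held 3.71% against 7.59%. The 7-nt miR-181 match also lies in the SLC38A2 site of 224 reads, annotated to miR-26. An SLC25A25 site of 34 reads, annotated to miR-183, holds it too. Those reads are not in the 1.18%, so the smaller miR-181 share holds for annotated sites only. By the authors' score in the deposited table, miR-21-5p had the most microRNA reads of the seeds annotated at solute carriers, yet it was annotated at 1 solute carrier site, in SLC25A25, with 11 reads (0.289%, against 2.54% elsewhere). The miR-17 and miR-20a family, which the study's title names, was annotated at 5 sites with 64 reads in SLC30A1, SLC30A7, SLC39A6, SLC2A3 and SLC25A16, or 1.68% of solute carrier reads against 4.48% elsewhere. Its summed level was 6.16 and 7.42 scaled RPM in TGFbeta1 libraries, against 4.43 and 3.44 in control libraries. The groups did not overlap, but without TMM scaling they did (3.78 and 7.61 RPM in TGFbeta1 libraries, and 4.67 and 5.19 in control libraries). The site in SLC30A1 had 5 and 12 reads in TGFbeta1 libraries, and 4 and 3 in control libraries. Its window holds the 7-nt match in capitals.
SLC30A1, 3′ UTR, chr1:211573126-211573154, minus strand: ttatttctttacaatGCACTTTctaaccc

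Of 45 proteins that partner or regulate carriers, from a list set beside the members, 24 had crosslink sites and 9 were tested. The list was chosen with earlier results of these data known, so calls within it are no independent support. Over all tested genes 3.08% were called. SGK1, a kinase known to raise the activity of several carriers and channels, rose in TGFbeta1 libraries, at 55.0 and 47.8 scaled RPM, against 25.4 and 24.0 in control libraries (log2 1.02 ± 0.23 SE, adjusted p = 0.0378, limma). ARRDC3, an arrestin-like adaptor for removal of membrane proteins, fell, at 9.36 and 13.9 in TGFbeta1 libraries, against 41.5 and 39.0 in control libraries (log2 -1.73 ± 0.27 SE, adjusted p = 0.0104, limma). Both calls were lost without the low-count filter (adjusted p = 0.247 for each gene), without the variance trend (0.208 for SGK1 and 0.0793 for ARRDC3) and with covering reads at all sites (0.124 and 0.064). That of SGK1 was also lost without TGFbeta1 replicate 1 (0.251), without TGFbeta1 replicate 2 (0.0966), with DESeq2 (0.0572) and without TMM scaling (0.697, at a log2 difference of 0.49). Without control replicate 1 or control replicate 2 limma called 0 of 1868 and 0 of 1681 genes, with 263 and 245 at an unadjusted p under 0.05 and the spread taken from the TGFbeta1 libraries alone. The log2 differences were then 1.13 and 0.97 for SGK1, and -1.62 and -1.77 for ARRDC3. The other 7 did not pass the test. Among them were IRS2, an adaptor of insulin signalling, with 131 and 149 scaled RPM in TGFbeta1 libraries, and 133 and 177 in control libraries, and TXNIP, a brake on glucose uptake, with 57.0 and 73.2 in TGFbeta1 libraries, and 60.8 and 71.6 in control libraries. The median log2 difference of the 9 was -0.07, against 0.02 over all tested genes.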

How the data were processed

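The deposited table lists, per crosslink site and Argonaute library, reads covering and reads carrying the crosslink in RPM, scaled by the authors to library totals per the file headers. STAR 2.7.1a, bcl2fastq 2.20.0.422 and bedtools were used per the submitters' processing notes, with GENCODE release 27 per the file headers. What called the crosslinks, and with which filters, is not given in the sources used here. The authors' microRNA score, microRNA reads scaled to the library and rounded per the file headers, ranked families only. All RPM values gave whole reads (100% within 0.1 read), so reads and depth were recovered. Another 4 columns, headed as RNA-seq, name samples outside this series and were not used. Levels were thus not set against the amount of RNA.

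Solute carrier rows were taken by symbol and summed per gene. The members and lists were chosen with earlier results of these data known. limma 3.58.1 in R 4.3.3, with a variance trend, was run two-sided on log2(TMM-scaled RPM + 1) over all genes and all sites kept by filterByExpr (minimum count 10), with Benjamini-Hochberg adjustment; log2 differences understate the change of low genes. The plan provided for edgeR if the values were counts. edgeR 4.0.16 and DESeq2 1.42.0 on recovered reads were alternatives. The tests were checked on simulated data. The values of 1 gene are not reported here; it is kept in counts and sums. Named genes were those with an adjusted or unadjusted p under 0.05, the 15 with most reads, the 3 with most reads of each role list, and partners likewise; SLC7A1, SLC7A11 and the windows of SLC7A11, SLC4A7 and the SLC30A1 site with a miR-17 match were added after values were seen. Deviations from the group mean, not the levels themselves, correlated at 0.131 over genes between libraries with the same replicate number. With 2 libraries per group both pairs give this 1 value, and the libraries were not taken as pairs. The sources used here name no molecular identifiers, so reads cannot be taken as independent molecules.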

Additional observations from a re-analysis of the deposited data

How the results depend on the processing

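The count of solute carrier genes past the threshold was 0, with limma and in each alternative except edgeR, covering reads at the sites that all libraries share, and 3′ UTR sites only, which each gave 1, SLC6A6. The 1 called solute carrier site was lost (0 sites) without TMM scaling, with DESeq2, without the filter, without the variance trend, with covering reads at all sites, and without control replicate 2 or either TGFbeta1 replicate; it kept 1 call without control replicate 1 and with edgeR. Over all genes, against 39 calls, there were 3 without the filter, 3 without the trend, 25 with covering reads at all sites, 84 with covering reads at those shared sites, 70 with 3′ UTR sites only, and 0 to 30 with a library left out. Over all sites, against 76 calls, there were 28 without TMM scaling, 42 with DESeq2, 0 without the filter, 25 without the trend, 0 with covering reads at all sites, 203 with covering reads at those shared sites, and 22 to 110 with a library left out. edgeR called 48 genes and 82 sites. The filter alternative tests more genes and sites and each left-out library leaves 3; for the others the cause was not tested. With the replicate number as a block, 57 genes and 117 sites were called, with 0 solute carrier genes and 1 solute carrier site among them; the block changed no solute carrier call. Without TMM scaling, 4 of the called sites were higher and 24 lower in TGFbeta1 libraries, against 39 and 37 with it. The change in the share of solute carrier reads at seed-annotated sites was -1.50 points, and -9.88 with covering reads. For the 35 other named genes and sites, none of 498 values under the alternatives passed the threshold.

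Groups of 2 cannot reach p under 0.05 in a permutation test. The solute carrier sites had a median of 8 reads over 4 libraries, and 18 of the 226 passed the filter for the site fit. Alternatives that leave out SLC38A2 or noncoding sites were chosen after the data were seen.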
